A study of Homo sapiens with 4 samples.

Results

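TXNIP, its relatives among the alpha-arrestins and the transcription factors that sense glucose were described in 769-P, an established human renal clear cell carcinoma line. The 8 genes were found by name among the 58735 genes of each library: TXNIP, ARRDC4, ARRDC3, ARRDC2, ARRDC1, MLXIP, MLXIPL and MLX. They were put together with the difference between the groups already known, so their differences are given as a description, with no test. The 2 doxycycline libraries came from cells with a stably transfected, inducible shRNA construct against USP35 that were given doxycycline at 1 µg/ml for 4 days. The 2 control libraries came from untreated cells of the same genotype, labelled wild type with that construct. The construct is in all 4 libraries, and cells that lack the hairpin but received the drug were not analysed here, so effects of the drug and of the hairpin cannot be told apart. The construct was kept under puromycin selection in both groups. Whether the replicates came from separate cultures is not stated, so the spread behind each p-value is that between libraries and could be technical.

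Alpha-arrestins are adaptor proteins with an arrestin fold that link membrane proteins to ubiquitin ligases of the NEDD4 family. TXNIP also binds thioredoxin, and TXNIP and ARRDC4 both limit glucose uptake. MLXIP encodes MondoA and MLXIPL encodes ChREBP, which pair with MLX, respond to glucose phosphate and bind paired E-boxes called carbohydrate response elements. TXNIP and ARRDC4 are the best known MondoA targets. TXNIP is often discussed as a growth-restraining gene in kidney cancer.

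The paired E-box is shown first because it is the sequence through which MondoA and ChREBP are known to act on TXNIP. Promoter windows of 300 bases, with 250 before and 50 after the annotated start, were taken from RefSeq on GRCh38.p14, and all 8 genes matched, with 11 windows among them. Both strands were searched for the paired E-box (2 copies of CACGNG with 5 bases between them), CACGTG (the plain E-box), GTAAACA (a forkhead motif) and CCAAT. The stretches below end 51 or 41 bases before the start, on the strand of the gene, and capitals mark the matches, which do not overlap each other. The TXNIP stretch is chr1:145996630-145996729 on the minus strand, ARRDC4 is chr15:97960453-97960652 on the plus strand, and MLX is chr17:42567010-42567059 on the plus strand.
TXNIP: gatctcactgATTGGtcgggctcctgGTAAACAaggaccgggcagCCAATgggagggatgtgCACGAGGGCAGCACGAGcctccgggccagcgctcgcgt
ARRDC4: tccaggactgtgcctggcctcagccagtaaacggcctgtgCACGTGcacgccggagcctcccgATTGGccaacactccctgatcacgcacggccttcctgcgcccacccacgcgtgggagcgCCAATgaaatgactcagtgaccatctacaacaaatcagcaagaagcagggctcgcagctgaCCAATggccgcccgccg
MLX: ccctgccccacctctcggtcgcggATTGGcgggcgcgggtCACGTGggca

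TXNIP was the only gene of the 8 with the paired E-box in the form searched, in 1 of its 2 windows, at -88 to -72 from the start. Its forkhead match lay at -124 to -118, between 2 CCAAT matches that begin at -140 and -105. The paired E-box in this form is rare, being found in 20 of 35116 windows of this length, or 0.057%. Pairs with other letters, spacing or orientation were not searched, so their absence from the other genes is not shown. ARRDC4 held a plain E-box at -210 to -205 and 3 CCAAT matches, and MLX held a plain E-box at -50 to -45, a motif found in 7.26% of windows. ARRDC3 had a forkhead match at -29 to -23 of its downstream start, on the opposite strand, and 3.42% of windows hold that motif. CCAAT was found in 7 of the 11 windows, against 34.6% of all windows. A match is a description of letters, not of binding.

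**Figure D1:**
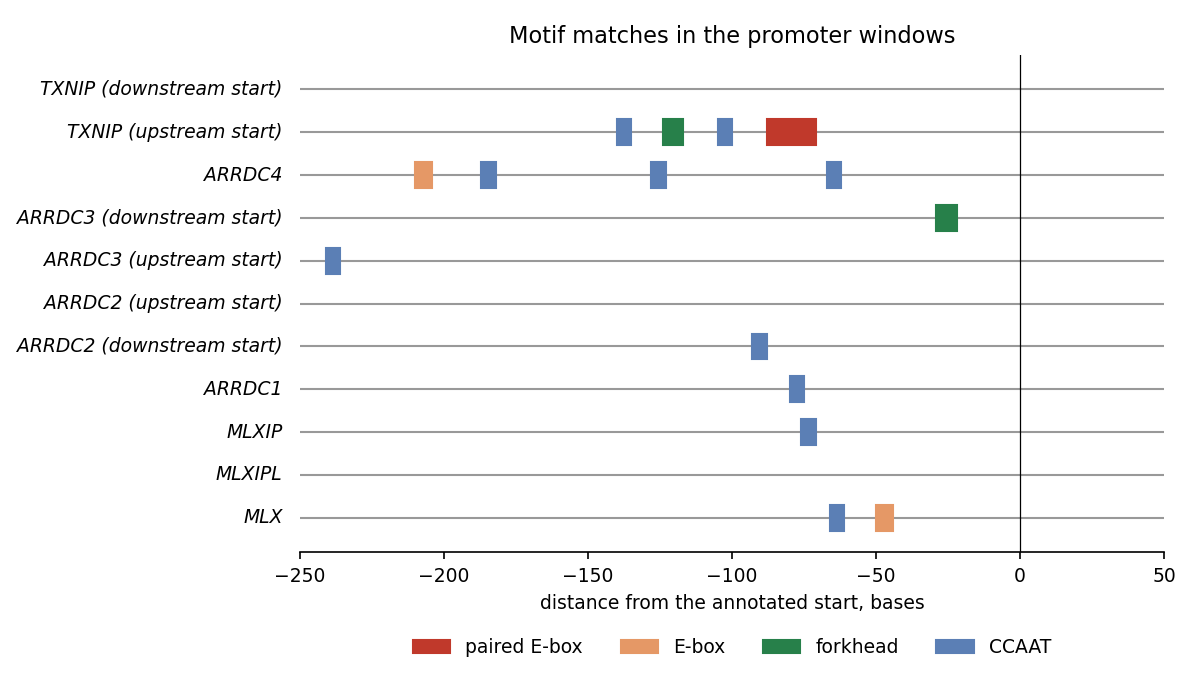
Motif matches in the 11 promoter windows of the 8 genes, by distance in bases from the annotated start (vertical line), 250 bases before to 50 after it. Each row is a window, and coloured blocks are matches on either strand. The paired E-box stands in the upstream TXNIP window alone among these rows.

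Across the series, depth ran from 16319640 to 18764546 reads, recovered from the FPKM steps. FPKM correct for the length of each gene and the size of the library, so levels can be compared between genes. That comparison is rough, because the same length stands for every transcript of a gene. The library size used was 107.5% of the recovered reads in doxycycline replicate 1 and 97.6% in replicate 2. In the controls it was 97.2% and 101.0%, and how it was set is not stated, so small differences between libraries are less certain. USP35, the target of the hairpin, stood at 2.11 and 2.54 FPKM in the doxycycline libraries, against 3.31 and 4.19 FPKM in the controls. Its log2 difference of -0.51 did not pass the test (limma adjusted p = 0.256). Of the 12029 genes that averaged 1 FPKM or more, 0 passed an adjusted p of 0.05 (limma, and limma-voom on the recovered reads), while 2204, or 18.3%, had an unadjusted p under 0.05 in limma. The doxycycline libraries stood apart from each other, with mitochondrially encoded genes at 7.44% of reads in replicate 1 and 14.6% in replicate 2, against 8.21% and 8.50% in the controls. Of 10 markers of kidney lineage and renal clear cell carcinoma, 9 had a mean of at least 1 FPKM. CA9, a carbonic anhydrase typical of this tumour, had at most 0.038 FPKM in any library. Markers of endothelial cells, leukocytes and fibroblasts all stood below 1 FPKM, with summed levels of at most 0.0051, 0.58 and 0.23 FPKM in the doxycycline libraries and 0.028, 0.99 and 0.81 FPKM in the controls.

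TXNIP (ENSG00000265972, GRCh38 chromosome 1, 145992435 to 145996600, minus strand) had more than double the control mean in each library given doxycycline. Its level was 51.8 and 83.9 FPKM with doxycycline (replicates 1 and 2, the order kept below), against 17.7 and 25.9 FPKM in the controls. The groups did not overlap, and the higher library of each group was its replicate 2. The means were 67.9 ± 22.7 FPKM with doxycycline and 21.8 ± 5.80 FPKM in the controls (SD, n = 2 each), a ratio of 3.12. These values rest on 3529 and 5571 reads with doxycycline and 1016 and 1633 reads in the controls. As in any bulk sample, more cells with the transcript and more RNA per cell cannot be told apart. On the log2(FPKM + 1) scale, which understates changes of low genes, the difference was 1.58, the 54th highest of the 12029 genes. The controls also parted by 0.53 on that scale, and 5.15% of genes had a wider gap between the controls.

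ARRDC4 (ENSG00000140450, chromosome 15, 97960698 to 97973838, plus strand) limits glucose uptake as TXNIP does and had the highest ratio of the 7 members above the filter. It stood at 5.29 and 10.4 FPKM with doxycycline, against 1.72 and 1.73 FPKM in the controls. The groups did not overlap, and the control levels were close to the 1 FPKM filter. The means were 7.82 ± 3.58 and 1.73 ± 0.011 FPKM (SD, n = 2 each), a ratio of 4.53, and the log2 difference was 1.63. The reads were 405 and 772 with doxycycline and 111 and 123 in the controls. The spread was on the doxycycline side, with replicate 2 above replicate 1 by 0.85 on the log2 scale, against a gap of 0.0086 between the controls.

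ARRDC3 (ENSG00000113369, chromosome 5, 91368724 to 91383359, minus strand), an adaptor known to act on integrin beta 4, was the steadiest of the genes that were higher. It stood at 53.5 and 52.2 FPKM with doxycycline, against 18.9 and 19.6 FPKM in the controls. Replicates of each group lay within a few percent of each other, and the groups stood far apart. The means were 52.8 ± 0.93 and 19.3 ± 0.50 FPKM (SD, n = 2 each), a ratio of 2.74, and the log2 difference was 1.41, the 79th highest. Between the doxycycline libraries 93.8% of genes differed by more than ARRDC3 did, and between the controls 82.8%. ARRDC3-AS1, on the other strand, shares 145 of the 4934 bases and had at most 0.17 FPKM.

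ARRDC1 and ARRDC2 did not follow these 3 genes. ARRDC1 (ENSG00000197070, chromosome 9, 137605654 to 137615360, plus strand), which drives budding of small vesicles at the plasma membrane, stood at 12.4 and 5.17 FPKM with doxycycline, against 14.2 and 11.7 FPKM in the controls. The groups overlapped, and the low value was that of doxycycline replicate 2 alone. Its log2 difference from the control mean was -0.051 in replicate 1 and -1.17 in replicate 2, and 5.06% of genes parted more between the doxycycline libraries. ARRDC2 (ENSG00000105643, chromosome 19, 18001132 to 18014102, plus strand), a less studied relative, stood at 6.596 and 4.84 FPKM with doxycycline, against 6.593 and 7.21 FPKM in the controls. The groups overlapped at their edge, and replicate 2 was again the lowest library. ARRDC1-AS1 overlaps ARRDC1 by 29 of 3821 bases and stood at 6.84 and 5.28 FPKM with doxycycline, against 8.90 and 7.89 FPKM in the controls. Since strandedness is not given, reads in shared bases cannot be assigned.

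**Figure D2:**
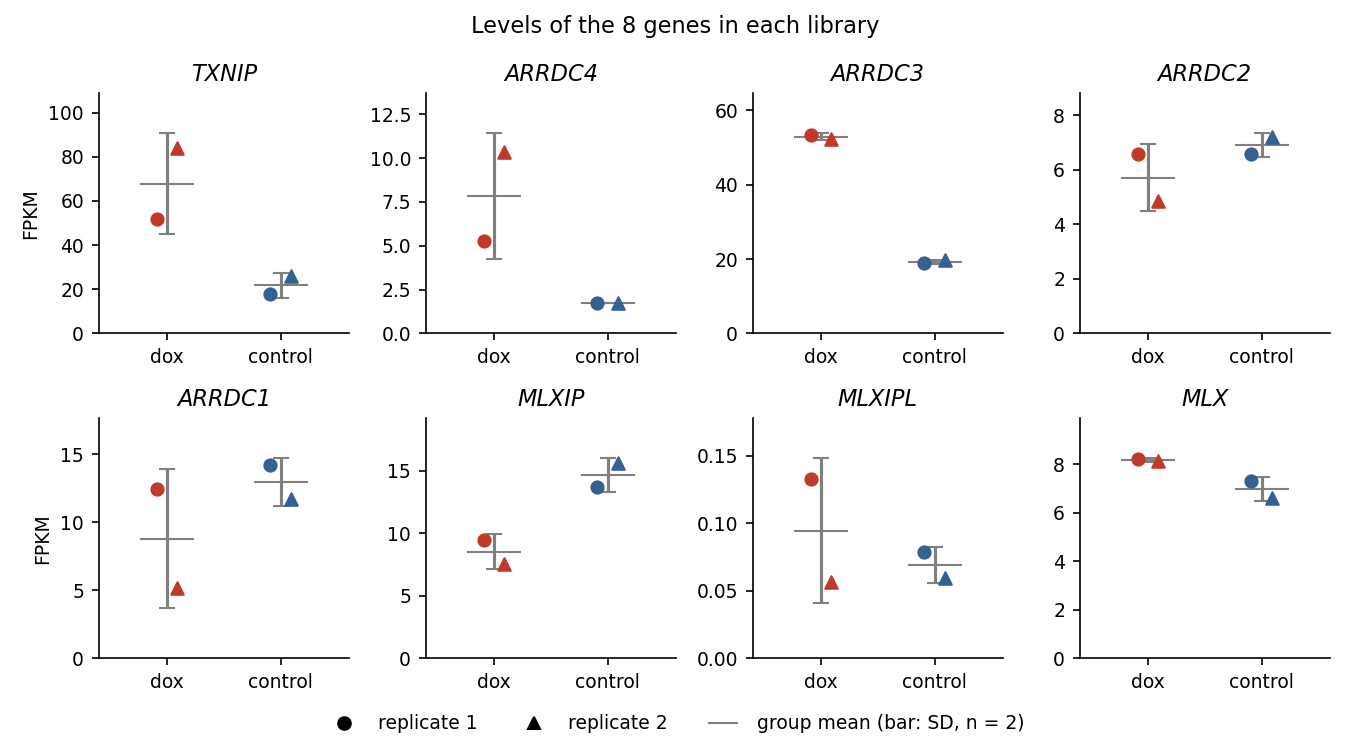
FPKM of each of the 8 genes (own axis from 0) in the doxycycline libraries, left, and the controls, right. Circles are replicate 1, triangles replicate 2, and grey marks the mean with its SD (n = 2). TXNIP, ARRDC4 and ARRDC3 lie above both controls in both doxycycline libraries, MLXIP lies below both, and ARRDC1 is low in doxycycline replicate 2.

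The summed alpha-arrestin level was higher with doxycycline, with a larger share for TXNIP, ARRDC3 and ARRDC4 and a smaller one for ARRDC1 and ARRDC2. These genes were put together with their differences known, so the sum and the shares restate the levels given above. The shares add up to the whole, so a larger share of some genes makes that of the others smaller. The sum over the 5 family genes among the 8 was 129.6 and 156 FPKM with doxycycline, against 59.1 and 66.2 FPKM in the controls. TXNIP made up 40.0% and 53.6% of the sum with doxycycline, against 29.9% and 39.1% in the controls. ARRDC3 made up 41.3% and 33.3%, against 32.0% and 29.7%. ARRDC1 made up 9.57% and 3.31%, against 24.0% and 17.7%. ARRDC2 made up 5.09% and 3.09%, against 11.2% and 10.9%. The share of TXNIP was close between the groups in 2 libraries, with 40.0% in doxycycline replicate 1 and 39.1% in control replicate 2. By level, ARRDC1 and ARRDC2 overlapped between the groups, though their shares were smaller with doxycycline. ARRDC4 was a small part throughout, with 4.08% and 6.62% against 2.91% and 2.62%. TXNIP exceeded ARRDC4 by 9.79 and 8.11 times with doxycycline and by 10.3 and 14.9 times in the controls. ARRDC5, the remaining relative, had 0 reads in each library, which allows up to 0.12 FPKM (a limit of 3 reads, for counting error only).

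**Figure D3:**
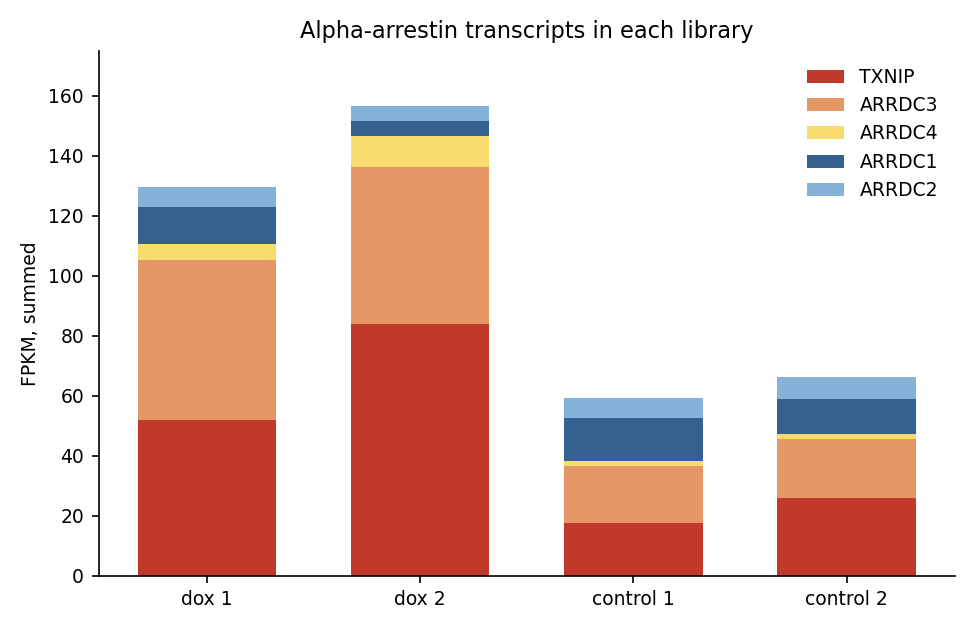
Summed FPKM of the alpha-arrestins in each library, stacked by gene, with no error bars because each bar is 1 library. The doxycycline bars reach 129.6 and 156 FPKM, against 59.1 and 66.2 FPKM in the controls, and most of the added height is TXNIP and ARRDC3.

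Of the glucose-sensing factors, MLXIP was lower, MLX slightly higher, and MLXIPL was barely detected. MLXIP (ENSG00000175727, chromosome 12, 122078722 to 122147347, plus strand), which encodes MondoA, stood at 9.49 and 7.51 FPKM with doxycycline, against 13.7 and 15.6 FPKM in the controls. The groups did not overlap, and the direction is opposite to that of TXNIP and ARRDC4, its known targets. The means were 8.50 ± 1.40 and 14.7 ± 1.34 FPKM (SD, n = 2 each), a ratio of 0.58, and the log2 difference was -0.73. A larger size of difference, in either direction, was seen for 12.3% of genes.

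MLX (ENSG00000108788, chromosome 17, 42567068 to 42573239, plus strand), the shared partner of MondoA and ChREBP, stood at 8.22 and 8.12 FPKM with doxycycline, against 7.31 and 6.61 FPKM in the controls. The groups did not overlap but the ratio was only 1.17. PSMC3IP, on the other strand, shares 770 of the 4259 bases of MLX and stood at 2.05 and 1.15 FPKM with doxycycline, against 3.92 and 3.46 FPKM in the controls. As for ARRDC1, reads in the shared bases cannot be assigned. MLXIPL (ENSG00000009950, chromosome 7, 73593194 to 73624543, minus strand), which encodes ChREBP and is known mainly from liver, fat and kidney, had 12 and 5 reads with doxycycline, against 6 and 5 in the controls. Its level was 0.133 and 0.0567 FPKM, against 0.0785 and 0.0596 FPKM, and no difference was detectable at this depth. MLXIP transcript stood at 1.15 and 0.93 times the level of MLX with doxycycline, against 1.87 and 2.36 times in the controls.

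By level, TXNIP and ARRDC3 led in both groups and overlapped each other, well above the rest with doxycycline. In the controls MLXIP and ARRDC1 came next, at means of 14.7 and 12.9 FPKM against 19.3 FPKM for ARRDC3, and overlapped, then MLX and ARRDC2, which overlapped, then ARRDC4, and last MLXIPL. With doxycycline ARRDC1, MLXIP, MLX and ARRDC4 overlapped, and ARRDC2, lowest of them by mean at 5.72 FPKM, overlapped ARRDC1 and ARRDC4. MLXIPL again stood last, at a mean of 0.095 FPKM.

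Of the 8 genes, 7 passed the filter on low values. The doxycycline libraries stood wholly above the controls for 4 genes, wholly below for 1 (MLXIP), and overlapped them for 3. Over all 12029 genes these shares were 24.3% above and 28.9% below, or 53.2% together, and the genes were chosen on this contrast, so nothing is read from their count. A log2 difference of at least 1 upwards was found for 3 of the genes and for 1.74% of all genes. The median over the 7 genes was 0.21, against -0.026 over all genes.

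The 2 doxycycline libraries parted for several of the genes. Replicate 2, with the higher mitochondrial share, stood farther above the control mean in TXNIP (by 1.92 on the log2 scale, against 1.24 for replicate 1) and in ARRDC4 (by 2.06, against 1.21). It also had the lower levels of ARRDC1, ARRDC2 and MLXIP. ARRDC3 and MLX were alike in both libraries, with 1.39 and 1.43 for ARRDC3 and 0.20 and 0.21 for MLX in replicates 2 and 1. The part of the mitochondrial share in these gaps was not tested. With library sizes taken without mitochondrially encoded genes, the differences of TXNIP, ARRDC4, ARRDC3 and MLXIP kept their sign, as they did under the other scalings tried.

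**Figure D4:**
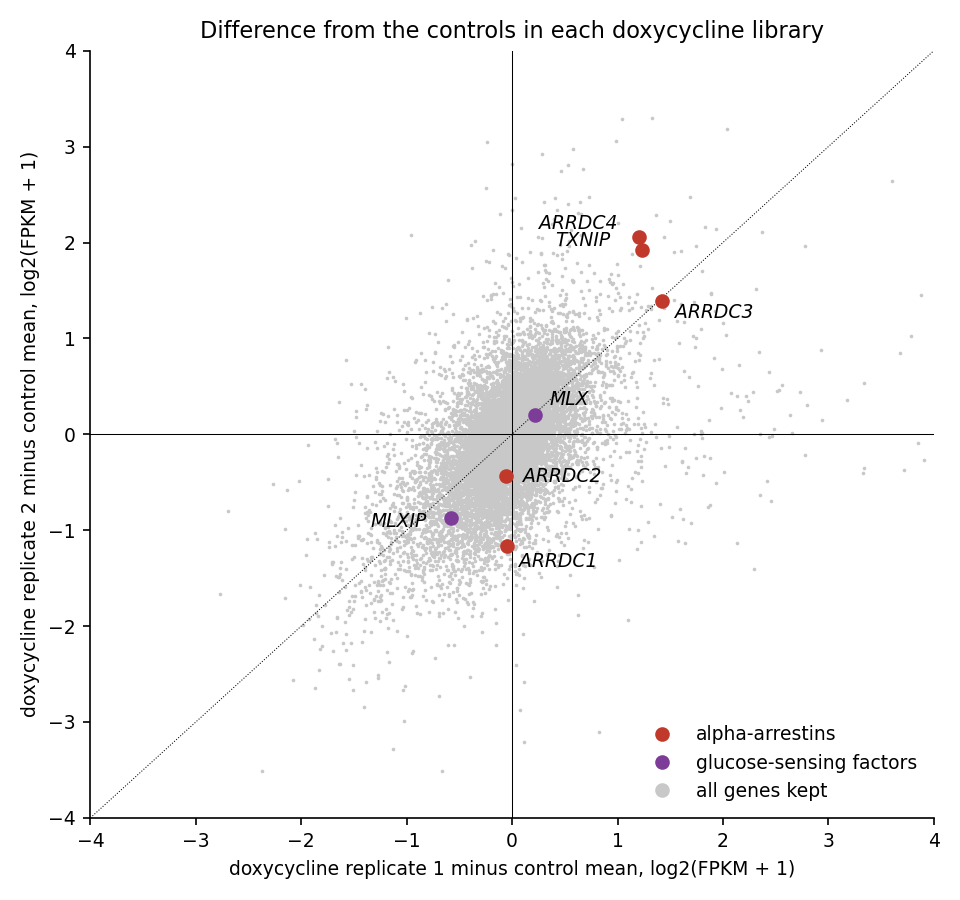
Difference of each doxycycline library from the control mean on the log2(FPKM + 1) scale, replicate 1 across and replicate 2 up, for the 12029 genes kept (grey; 14 lie outside the axes) and the 7 members among them. The dotted line marks equal differences. ARRDC3 and MLX lie on it, TXNIP and ARRDC4 above it, and ARRDC1, ARRDC2 and MLXIP below it.

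The pattern of TXNIP over the 4 libraries was set against those of 6931 genes averaging 5 FPKM or more, by Euclidean distance between centred log2(FPKM + 1) values. The nearest 5 were TNFSF10, which encodes the death ligand TRAIL, ZFPM2-AS1, SMIM32, CA12, a carbonic anhydrase, and CPEB2, at distances of 0.15, 0.23, 0.32, 0.34 and 0.38. TNFSF10 stood at 25.9 and 38.0 FPKM with doxycycline, against 8.84 and 12.7 FPKM in the controls. ARRDC4 lay at 0.39 from TXNIP, close behind those 5, and ARRDC3 at 0.63. For ARRDC4 the nearest 5 of 6932 genes were IGFBP3, RBPMS-AS1, MT-TM, HIST1H2AC and ZFPM2-AS1, at 0.21, 0.22, 0.35, 0.36 and 0.37. IGFBP3, which encodes an insulin-like growth factor binding protein, stood at 11.1 and 17.5 FPKM, against 3.54 and 3.35 FPKM. MLXIP lay at 2.42 from TXNIP, where it would rank 5996. The distance includes the gap between the groups, which was known when the members were put together. The places of ARRDC4, ARRDC3 and MLXIP therefore restate their levels.

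Pathway and partner genes outside the 8 were read from 9 lists with 103 genes, of which 68 were kept by the filter. Genes named below include those with the lowest p of each list, up to 2, such as MXI1 and MXD1. Those were thus picked by their values. In the fit over all genes 0 of the 68 passed the adjusted threshold, where 0.0% of all genes did (limma). At an unadjusted p under 0.05 in limma, 7 were higher and 6 lower, against 6.47% and 11.9% of all genes. Leaving out 1 library changes this: without doxycycline replicate 1, 17 were called higher and 9 lower, against 12.9% and 19.9% of all genes, and without replicate 2, 6 higher and 6 lower, against 4.95% and 8.39%. In these fits a single library stands for the group and is assumed to vary like the controls. Of these calls 5 were shared in the same direction (FASN, MXD1, MXD3, MXI1 and NEDD4) and 2 in opposite directions (DUSP1 and SGK1). Without either control 0 were called.

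Among the MAX network, whose members compete for E-boxes with the Mondo proteins, 8 of 10 genes were kept. MXI1, which encodes a repressor that dimerizes with MAX, stood at 10.8 and 13.6 FPKM with doxycycline, against 3.91 and 5.04 FPKM in the controls. Its log2 difference was 1.27 ± 0.21 (SE), with a limma adjusted p of 0.0686. MXD1, another such repressor, stood at 2.69 and 2.89 FPKM, against 0.78 and 0.90 FPKM (1.04 ± 0.20, limma adjusted p = 0.0793). For these genes the groups did not overlap, and neither passed over all genes. With a filter at a mean of 5 FPKM MXI1 had a limma adjusted p of 0.0327, and its range over all alternatives was 0.00027 to 0.76. MXD3, a repressor of the same family named after its values were seen, lay the other way, at 1.40 and 1.73 FPKM, against 3.71 and 3.52 FPKM (-0.85 ± 0.19, limma adjusted p = 0.108). MYC, MNT and MXD4 overlapped between the groups, with differences of 0.10, 0.011 and -0.04. MAX also overlapped, at 7.53 and 5.02 FPKM with doxycycline, against 5.24 and 4.74 FPKM. The list's median was 0.14, against -0.026 over all genes.

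Other known targets of MondoA and ChREBP were not higher as a list. Of 23, 11 were kept, with a median of -0.074, and 0 passed. The list mixes targets of both factors, while MLXIPL, which encodes ChREBP, stood at 0.133 FPKM or less. The activity of either factor was not tested. Of the 11, 3 stood above and 3 below both controls, near the 24.3% and 28.9% of all genes. FASN, fatty acid synthase, stood at 47.9 and 46.9 FPKM with doxycycline, against 80.6 and 93.2 FPKM (-0.86 ± 0.21, limma adjusted p = 0.135). KLF10, a glucose-responsive repressor, stood at 17.4 and 17.5 FPKM, against 26.3 and 24.5 FPKM (-0.52 ± 0.19, limma adjusted p = 0.235). Both were below the controls in both libraries. PFKFB3, which makes the activator of phosphofructokinase, stood at 53.4 and 70.0 FPKM, against 37.8 and 45.5 FPKM (0.55 ± 0.24, limma adjusted p = 0.295). GPD1 and PKLR, named after their values were seen, stood at 8.48 and 3.60 FPKM in doxycycline replicate 2 but at 0.80 and 0.39 FPKM in replicate 1, against at most 0.245 and 0.326 FPKM in the controls.

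The genes chosen by the paired E-box in a promoter window, a rule that uses no expression value, lay above the controls more often than below. Of 20 such genes 19 were in the files, and 14 besides TXNIP were kept. The doxycycline libraries stood above both controls for 7, below for 3 and overlapped for 4, where 24.3% and 28.9% of all genes lay above and below. Their median was 0.14, against -0.026 over all genes, and the range was -0.84 to 0.82, so none came near the 1.58 of TXNIP. Whether the counts above and below differ from the shares of all genes was not tested. P4HA1, a collagen prolyl hydroxylase subunit, was the highest of them, at 24.5 and 30.0 FPKM, against 15.3 and 14.5 FPKM (limma adjusted p = 0.131), and was picked after its value was seen.

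Glucose transporters and the enzymes that phosphorylate glucose had a median of 0.16 over the 11 of 22 that were kept. Of the 11, 0 stood above both controls and 1 below, against 24.3% and 28.9% of all genes. SLC2A1, the transporter GLUT1 that TXNIP and ARRDC4 are known to draw from the membrane, stood at 106 and 54.2 FPKM with doxycycline, against 56.9 and 54.0 FPKM, so only replicate 1 was high (limma adjusted p = 0.515). HK2, a hexokinase, likewise stood at 10.2 and 3.99 FPKM, against 5.13 and 4.59 FPKM, and HK1 at 14.4 and 16.5 FPKM, against 15.1 and 13.5 FPKM. SLC2A6, a transporter of lysosomal membranes, stood at 4.12 and 3.52 FPKM, against 5.59 and 5.58 FPKM (-0.45 ± 0.18, limma adjusted p = 0.256). SLC2A3 is listed at 0 in all libraries, as is SLC2A14, its near-identical copy, between which reads could not be assigned with certainty.

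**Figure D5:**
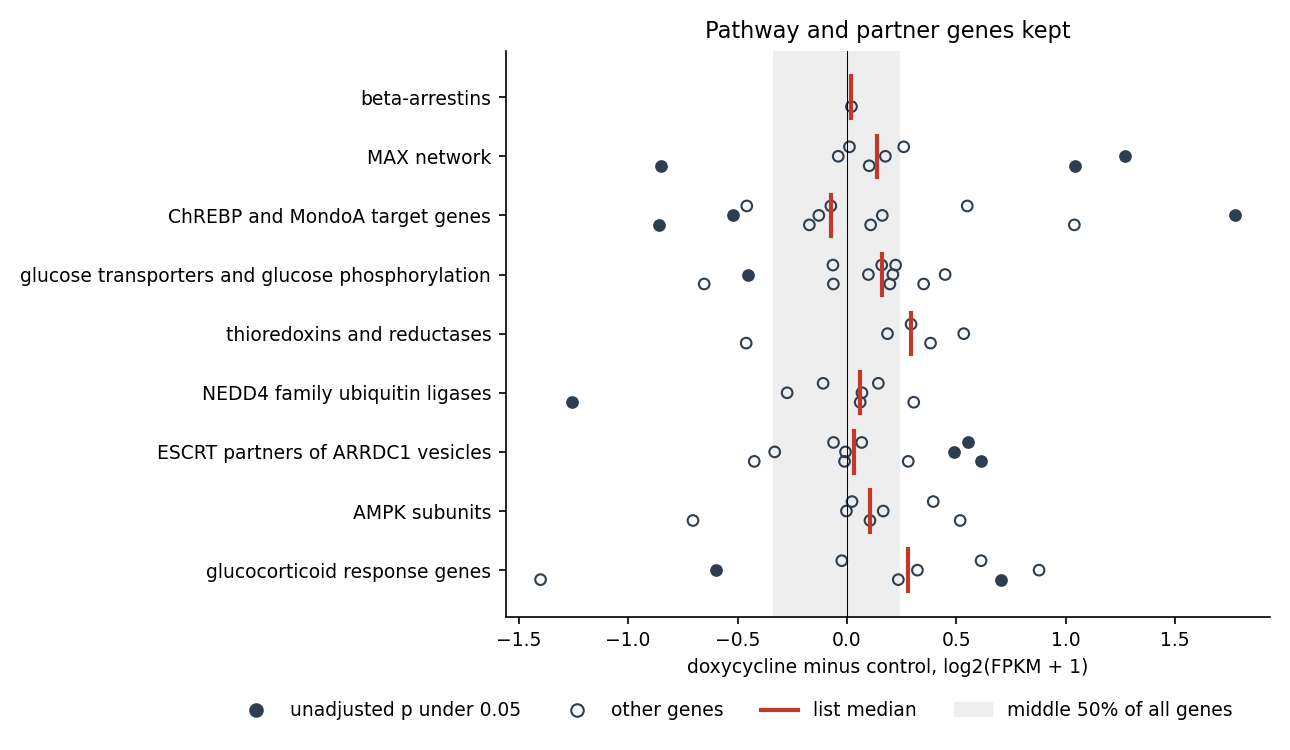
Difference between doxycycline and control on the log2(FPKM + 1) scale for each gene kept of the 9 lists. Filled points have an unadjusted limma p under 0.05, red bars are list medians, and grey is the middle 50% of all genes. Of 68 genes, 7 filled points lie to the right and 6 to the left.

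TXN, thioredoxin and the redox partner of TXNIP, stood at 332 and 540.2 FPKM with doxycycline, against 325 and 263 FPKM in the controls (0.53 ± 0.32, limma adjusted p = 0.418). TXN2, the mitochondrial form, stood at 32.9 and 36.3 FPKM, against 31.8 and 28.8 FPKM, and TXNRD1, the reductase, at 121 and 203 FPKM, against 129.9 and 126 FPKM. TXNRD2, the mitochondrial reductase, stood at 3.32 and 2.12 FPKM, against 4.33 and 3.79 FPKM (limma adjusted p = 0.330). Of the 5 genes, 0 passed, and the list's median was 0.29.

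Among the NEDD4 family ligases that alpha-arrestins recruit, 7 of 9 were kept and NEDD4 itself stood out. It stood at 2.88 and 2.60 FPKM with doxycycline, against 8.11 and 7.75 FPKM in the controls, a ratio of 0.35. NEDD4 shared the lowest limma adjusted p of the fit with other genes, among them TACC3, EHD2 and ANLN, and 126 genes were under 0.06. For NEDD4 the log2 difference was -1.26 ± 0.17 (SE), with a limma adjusted p of 0.0573. It was 0.0335 with a filter at a mean of 5 FPKM and ranged from 2.6e-04 to 0.692 over all alternatives. ITCH, the ligase that marks TXNIP for degradation, stood at 13.9 and 19.3 FPKM, against 15.9 and 15.3 FPKM. WWP1, WWP2 and NEDD4L also overlapped between the groups, with differences of 0.14, -0.27 and 0.06. SMURF2 stood at 3.93 and 4.63 FPKM, against 3.25 and 3.27 FPKM (limma adjusted p = 0.406). The median of the list was 0.06.

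TSG101, the ESCRT protein that ARRDC1 recruits for vesicle budding, stood at 23.0 and 23.9 FPKM, against 14.8 and 15.1 FPKM in the controls (0.61 ± 0.19, limma adjusted p = 0.180). CHMP4C, an ESCRT-III subunit, stood at 12.2 and 10.2 FPKM, against 6.92 and 7.72 FPKM (limma adjusted p = 0.216). Both genes were above the controls in both libraries. Of the 11 ESCRT genes listed, 10 were kept, with a median of 0.03. Among those 10, 4 stood above and 2 below both controls, against 24.3% and 28.9% of all genes. Of the beta-arrestins, ARRB2 stood at 2.04 and 2.45 FPKM, against 2.23 and 2.15 FPKM, and ARRB1 had at most 0.31 FPKM.

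Of the AMPK genes, which encode the energy sensor that phosphorylates TXNIP and its upstream kinase, 7 of 8 were kept and 0 passed, with a median of 0.11. STK11, the upstream kinase, stood at 11.6 and 6.28 FPKM with doxycycline, against 15.7 and 13.5 FPKM (-0.70 ± 0.29, limma adjusted p = 0.280). PRKAG1 stood at 19.2 and 25.2 FPKM, against 16.1 and 14.1 FPKM (0.52 ± 0.22, limma adjusted p = 0.285), and PRKAA1, a catalytic subunit, at 14.3 and 20.9 FPKM, against 15.0 and 15.6 FPKM. TXNIP, ARRDC2 and ARRDC3 are also known glucocorticoid-responsive genes, and 8 of 12 genes of that response were kept, with a median of 0.28. CEBPD stood at 23.8 and 34.6 FPKM, against 16.9 and 17.6 FPKM (limma adjusted p = 0.218), and PER1 at 0.69 and 0.66 FPKM, against 1.31 and 1.79 FPKM (limma adjusted p = 0.251). TSC22D3, or GILZ, stood at 1.15 and 3.69 FPKM, against 0.67 and 0.78 FPKM (limma adjusted p = 0.293), with the higher level in replicate 2.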

How the data were processed

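RNA sequencing of 4 libraries was deposited as 1 table of FPKM each (fragment counts scaled to gene length and library size), per the file headers. The submitters' processing notes list limma, HISAT2 2.0.5 and featureCounts 1.5.0-p3 without saying what each did. For build, strandedness and filters nothing is given in the sources used here, but all 58735 gene identifiers and coordinates were identical to GENCODE release 29 on GRCh38.

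Reads were recovered by dividing FPKM times gene length by the value of 1 read fitted in that library, and 100.0% of values came out whole (tolerance 0.02 reads). A count of 0 allows 3 reads, or 0.0798 to 0.0945 FPKM for a gene of 2 kb, for counting error only. Genes averaging 1 FPKM or more were tested on log2(FPKM + 1) with limma-trend (limma 3.58.1, R 4.3.3), two-sided, 2 residual degrees of freedom, no covariate, Benjamini-Hochberg adjustment and a threshold of 0.05. The recovery of reads and the limma fit were tested on simulated data. For the fit the simulated spread was that of the controls, whose median gap was 0.158 on the log2 scale. Between the doxycycline libraries it was 0.316, so the simulation does not show how the fit performs at that wider spread. Differences are doxycycline minus control, and fold changes are ratios of mean FPKM.

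The members and lists were chosen with earlier results of these data known, and the members get no test. Named are all members, 25 genes chosen with the lists, the 2 lowest p of each list, and the 5 genes nearest to TXNIP and to ARRDC4; others are marked. Protein sequences were not analysed here. The value of 1 list gene is not reported here. Alternatives covered the pseudocount, filter, scaling, libraries entered, replicate block and voom on recovered reads. Tables were handled with Python 3.11.15 and pandas 2.3.3.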

Additional observations from a re-analysis of the deposited data

How the results depend on the processing

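With 2 libraries a group, the number of genes past the limma threshold depends on the setting. The differences of the 7 members above the filter kept their sign under all 12 alternatives, or 11 for ARRDC4. The filters and the replicate block cannot alter a difference, and leaving out 1 library cannot reverse members whose groups do not overlap. MLXIPL had 1 alternative, which cannot alter its difference of 0.033. Against the control mean MLXIPL lay at 0.083 in doxycycline replicate 1 and -0.017 in replicate 2. TXNIP ranged from 1.24 to 1.92, ARRDC4 from 1.21 to 2.15, ARRDC3 from 1.38 to 1.55, MLXIP from -0.88 to -0.58, MLX from 0.14 to 0.29, ARRDC2 from -0.43 to -0.055 and ARRDC1 from -1.17 to -0.051. The count over all genes was 0 in the main setting, 261 (42 higher, 219 lower) with a filter at a mean of 5 FPKM, and 0 to 3942 when 1 library was left out: 3942 when doxycycline replicate 1 was dropped, 1605 when replicate 2 was dropped, and 0 when either control was. The count among the 68 list genes was 0, then 2 with that filter, and 0 to 26 when 1 library was left out. With the replicate block the counts were 784 (202 higher, 582 lower) over all genes and 4 among list genes (GPD1, MXD1 and MXI1 higher, NEDD4 lower). The labels do not say that a number marks a shared culture, so the block was not the main design. Deviations of same-numbered libraries correlated at 0.21 across genes, which does not decide whether a number marks a shared culture. Fits without 1 library assume that the lone library of its group varies like the others, and the cause of these shifts was not tested. Scaling moved the median of all genes by at most 0.076. MLXIPL rests on 5 to 12 reads.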
